A study of Mus musculus with 8 samples.

Results

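Sterol sensing, uptake and export genes in the fasted mouse brain were examined through 9 of 20832 genes matched to the array by RefSeq accession. They were taken by name: Srebf2, Scap, Insig1, Insig2, Stard4, Abca1, Abcg1, Apoe and Cyp46a1. Every non-control probe carrying one of these names was taken, which gave 12 probes of 39429 on the array. Brain RNA came from 4 samples of mice fasted for 17 hours and 4 samples of mice fed for 17 hours, each hybridised to 1 single-colour Agilent array. The labels give no strain, age, sex or number of animals behind a sample, and no genotype or agent, so p-values here reflect sample-to-sample spread, part of which may be technical. Values are log2 signals minus the 75th percentile of the array, so 0 is a bright probe and each unit is a doubling (a difference on this scale is a log2 fold change). Levels of different probes are not comparable with each other.

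Cells set their cholesterol content with a pair of opposed transcription factors. When sterol in the endoplasmic reticulum is low, SCAP escorts SREBP2, the product of Srebf2, to the Golgi, where proteases free its active part. That part switches on genes of sterol synthesis and uptake. INSIG1 and INSIG2 hold SCAP back when sterol is plentiful. When oxysterols accumulate, the nuclear receptors LXR, paired with RXR, switch on the exporters ABCA1 and ABCG1 and the carrier protein apolipoprotein E. The brain makes its own cholesterol behind the blood-brain barrier, passes it between cells on apolipoprotein E particles and sheds it mainly after hydroxylation by the neuronal enzyme CYP46A1. By this textbook division Srebf2, Insig1 and Stard4 were treated as SREBP2-driven and Abca1, Abcg1 and Apoe as LXR-driven, while Scap, Insig2 and Cyp46a1 were placed in neither class.

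The probes of Srebf2, Insig1 and Abca1, which stand for the 2 classes, are given by the first 30 of their 60 bases, 5′ to 3′. The placements are those of the array's design on mouse build mm9, and no exon or UTR annotation of that build was used here. The Srebf2 probe lies at chr15:82034765-82034824 (plus strand), the Insig1 probe at chr5:28404246-28404305 (plus) and the Abca1 probe at chr4:53043944-53044003 (minus).
Srebf2 probe A_51_P377508: aactaggtctttgcaccagagagcattttg
Insig1 probe A_51_P290207: acagcatagaacacaacacgtgggacctaa
Abca1 probe A_52_P665675: gttgcatccctttttgtagaacatttatat

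The 250 bases before the start of Srebf2, Insig1 and Abca1 are shown because these genes stand for the SREBP2 and LXR branches. The sequences are those of RefSeq on GRCm38.p6, and windows of 7 of the 9 genes were read here, all but Stard4 and Abcg1. Capitals mark matches, on either strand, to a sterol element (TCACNCCA), a CCAAT box (CCAAT), an E-box (CACGTG) or a direct repeat of the LXR type (GGTNA, then GGTNA again after 5 bases of any kind). No matches overlapped.
Srebf2 promoter: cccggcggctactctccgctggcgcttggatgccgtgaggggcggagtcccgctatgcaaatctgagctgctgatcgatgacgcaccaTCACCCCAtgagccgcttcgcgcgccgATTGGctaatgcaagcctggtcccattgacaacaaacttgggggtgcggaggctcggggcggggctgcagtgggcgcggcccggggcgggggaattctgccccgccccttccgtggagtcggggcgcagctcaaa
Insig1 promoter: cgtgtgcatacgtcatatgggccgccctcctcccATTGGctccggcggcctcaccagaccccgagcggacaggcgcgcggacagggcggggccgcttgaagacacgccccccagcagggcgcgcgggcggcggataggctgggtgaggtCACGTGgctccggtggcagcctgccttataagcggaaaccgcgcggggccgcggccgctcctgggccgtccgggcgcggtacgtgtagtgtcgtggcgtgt
Abca1 promoter: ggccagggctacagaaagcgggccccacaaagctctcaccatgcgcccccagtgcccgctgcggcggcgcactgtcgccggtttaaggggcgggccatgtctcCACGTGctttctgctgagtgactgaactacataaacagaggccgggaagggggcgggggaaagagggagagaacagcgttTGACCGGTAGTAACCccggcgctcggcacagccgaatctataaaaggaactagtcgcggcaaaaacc

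The Srebf2 window (chr15:82147019-82147268, plus strand) held TCACCCCA 162 to 155 bases before the start, and a CCAAT box on the opposite strand 135 to 131 bases before it. The Insig1 window (chr5:28071162-28071411, plus) held an opposite-strand CCAAT box at 216 to 212 and CACGTG at 101 to 96 bases. The Abca1 window (chr4:53159896-53160145, minus) held CACGTG at 147 to 142 bases and the direct repeat, on the opposite strand, at 67 to 53 bases. Among 32851 promoter windows of the same length, 3.67% held the sterol element, 33.8% the CCAAT box, 6.02% the E-box and 0.621% the direct repeat. The sterol element of Srebf2 and the direct repeat of Abca1 lay in the class of their factor, but not every match followed the classes. The Insig1 window held 0 sterol elements, while 1 of 3 windows of the LXR-driven Apoe held TCACCCCA at 213 to 206 bases. With no window read for Stard4 or Abcg1, the classes cannot be compared as wholes. A match describes letters only and shows no binding.

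Of the 12 probes, 11 passed the filter of being well above background on at least 4 of the 8 arrays and entered a limma fit over all 26066 such probes. At an adjusted p under 0.05, Abca1 and Abcg1 rose with fasting and 1 of the 2 Srebf2 probes fell. These 3 of 11 stand beside a background of 16.9% of all probes called (8.40% higher and 8.55% lower in fasted brain), so calls were common in these arrays. The same 3 of 11 had fasted and fed values that did not overlap, against 24.8% of all probes (27.2% of all genes). Taken as genes, by the brightest probe of each, 3 of 9 were called against 21.0% of 15184 genes.

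**Figure D1:**
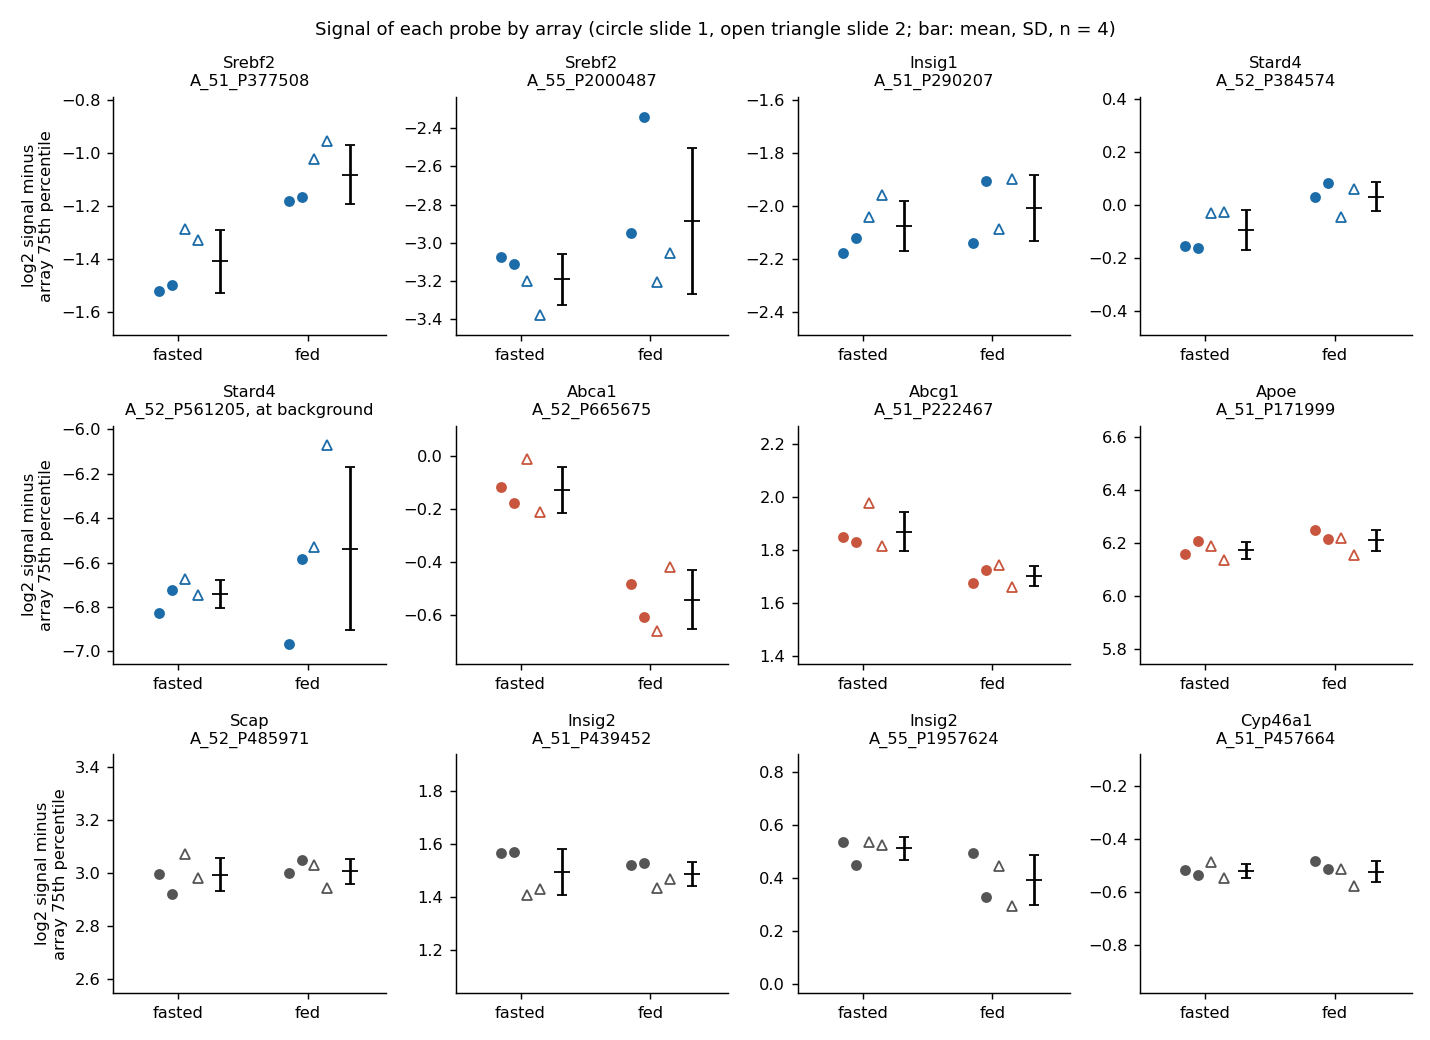
Log2 signal minus the array's 75th percentile (vertical axis) for each of the 12 probes, fasted on the left and fed on the right, with filled circles for slide 1, open triangles for slide 2 and bars for mean and SD (n = 4 arrays). Abca1 and Abcg1 separate with fasted arrays above, the Srebf2 probe A_51_P377508 separates with fasted arrays below, and the other probes overlap.

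Srebf2, which encodes SREBP2 itself and is among its own targets, was lower in fasted brain. Probe A_51_P377508 read -1.52, -1.50, -1.29 and -1.33 in the 4 fasted arrays, against -1.18, -1.17, -1.02 and -0.95 in the 4 fed arrays. Every fasted array lay below every fed one. The means were -1.41 ± 0.12 in fasted arrays and -1.08 ± 0.11 in fed arrays (SD, 4 arrays each), a difference of -0.33 ± 0.07 (SE, 95% interval -0.50 to -0.15), or 1.25-fold lower, with a limma adjusted p of 0.0232. The difference was -0.33 within slide 1 and -0.32 within slide 2, where slide 2 read 0.19 above slide 1 for this probe (adjusted p = 0.0452 for the slide). The call depended on single arrays: the adjusted p was 0.0614 without fasted replicate 1, 0.0617 without fasted replicate 2, 0.0570 without fed replicate 3 and 0.0529 without fed replicate 4. It was 0.0504 with median scaling and 0.0541 with no filter on dim probes, and the difference stayed between -0.37 and -0.28 throughout.

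A second Srebf2 probe, A_55_P2000487 at chr15:82030068-82030127, was dim, with a processed signal of 174 to 336. It read -3.08, -3.11, -3.20 and -3.38 in fasted brain, against -2.95, -2.34, -3.20 and -3.05 in fed brain. The groups overlapped, and fed replicate 2 stood well above the rest. The difference of -0.31 ± 0.18 (95% interval -0.71 to 0.10) did not pass (adjusted p = 0.271). It was -0.12 without fed replicate 2.

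Insig1, a classic SREBP2 target, encodes an anchor that holds SCAP back when sterol is plentiful. Its probe read -2.18, -2.12, -2.04 and -1.96 in fasted arrays, against -2.14, -1.91, -2.09 and -1.90 in fed arrays. The groups were interleaved. The difference was -0.07 ± 0.07 (95% interval -0.23 to 0.10, adjusted p = 0.565), which leaves room for a fall about as large as 0.23 or a small rise.

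Stard4, a soluble carrier that moves cholesterol between membranes, read -0.16, -0.16, -0.03 and -0.03 in fasted brain on probe A_52_P384574, against 0.03, 0.08, -0.05 and 0.06 in fed brain. The fasted arrays of slide 1 were lowest, and fed replicate 3 lay among the fasted values. The difference was -0.13 ± 0.05 (95% interval -0.24 to -0.02) with an adjusted p of 0.109. It was -0.21 within slide 1 and -0.04 within slide 2, and the test of that inequality gave an unadjusted p of 0.0552 and an adjusted p of 0.9999. The other Stard4 probe, A_52_P561205, was well above background on 0 of 8 arrays and was not tested.

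On the export side, Abca1 showed the largest difference of the 9 genes. It encodes the transporter that loads cholesterol and phospholipid onto lipid-poor apolipoproteins. Its probe read -0.12, -0.18, -0.01 and -0.21 in fasted arrays, against -0.48, -0.61, -0.66 and -0.42 in fed arrays. Every fasted array was above every fed one, with a clear gap between the groups. The means were -0.13 ± 0.09 in fasted arrays and -0.54 ± 0.11 in fed arrays (SD, 4 arrays each). The difference was 0.41 ± 0.07 (95% interval 0.26 to 0.57), or 1.33-fold higher (1.20 to 1.48), with an adjusted p of 0.00692. It was 0.40 in slide 1 and 0.43 in slide 2. The call held under all 18 alternative settings that used both slides, with adjusted p between 0.00196 and 0.0317.

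Abcg1, which passes cholesterol on to lipidated particles, rose by less. Its probe read 1.85, 1.83, 1.98 and 1.82 in fasted brain, against 1.68, 1.72, 1.74 and 1.66 in fed brain. The groups did not overlap, and fasted replicate 3 was highest. The means were 1.87 ± 0.07 in fasted arrays and 1.70 ± 0.04 in fed arrays (SD, 4 arrays each). The difference was 0.17 ± 0.04 (95% interval 0.07 to 0.27), or 1.12-fold higher, with an adjusted p of 0.0376. This call was held in 8 of 18 alternatives. It was lost with normexp background correction (adjusted p = 0.0650), median scaling (0.0634) and no filter on dim probes (0.0887). It was also lost when any single array was left out (0.0513 to 0.0866), apart from fasted replicate 3.

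Apoe, the main lipid carrier of the brain and made chiefly by astrocytes, did not follow the exporters. It was among the brightest signals, at 6.16, 6.21, 6.19 and 6.14 in fasted arrays, against 6.25, 6.21, 6.22 and 6.15 in fed arrays. The groups overlapped throughout. The difference was -0.04 ± 0.03 (95% interval -0.11 to 0.04, adjusted p = 0.495), an interval that reaches no rise beyond 0.04. The probe was spotted 10 times on each array, and its spots had a coefficient of variation of 2.53 to 5.43%, with 0 flagged.

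Of the genes in neither class, Scap, the sterol-sensing escort of SREBP2, read 2.996, 2.92, 3.07 and 2.98 in fasted brain, against 2.999, 3.05, 3.03 and 2.94 in fed brain. The groups overlapped, and the difference was -0.01 ± 0.04 (95% interval -0.11 to 0.09, adjusted p = 0.874). Cyp46a1, the neuronal cholesterol 24-hydroxylase, read -0.52, -0.53, -0.49 and -0.55 in fasted arrays, against -0.48, -0.52, -0.52 and -0.58 in fed arrays. All 8 values lay in a narrow band with the groups interleaved. The difference was 0.00 ± 0.03 (95% interval -0.07 to 0.08, adjusted p = 0.984).

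Insig2, the second SCAP anchor, had 2 probes. Probe A_51_P439452 read 1.57, 1.57, 1.41 and 1.43 in fasted brain, against 1.52, 1.53, 1.43 and 1.47 in fed brain. In both groups the slide 1 arrays were the higher pair. The difference was 0.01 ± 0.05 (95% interval -0.11 to 0.12, adjusted p = 0.947). Probe A_55_P1957624 read 0.54, 0.45, 0.54 and 0.52 in fasted brain, against 0.49, 0.33, 0.44 and 0.29 in fed brain. Its groups overlapped through fasted replicate 2 and fed replicate 1, and the difference of 0.12 ± 0.05 (95% interval 0.00 to 0.24) had an adjusted p of 0.149.

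**Figure D2:**
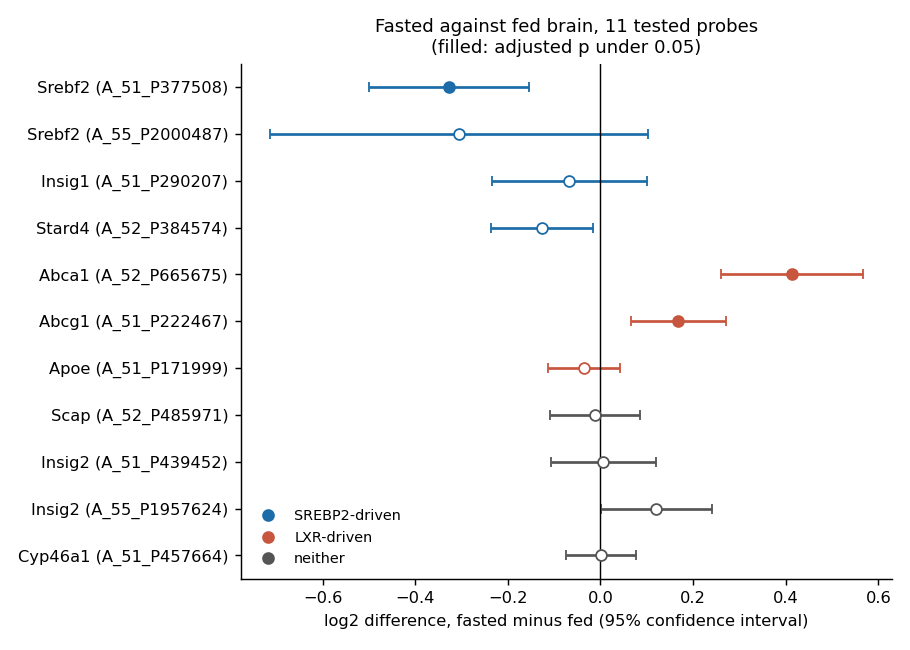
Log2 difference, fasted minus fed, with its 95% confidence interval for the 11 tested probes, coloured by class and filled where the adjusted p was under 0.05. Abca1 at 0.41 and Abcg1 at 0.17 lie above 0 and the Srebf2 probe at -0.33 lies below it.

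Set side by side, the call among the SREBP2-driven genes was a fall and the calls among the LXR-driven genes were rises. Of the 3 SREBP2-driven genes, 1 fell and 0 rose, with a median difference of -0.13 and a range of -0.33 to -0.07. Of the 3 LXR-driven genes, 2 rose and 0 fell, with a median of 0.17 and a range of -0.04 to 0.41. None of the 3 genes in neither class was called, and their median was 0.00. Over all 15184 genes 10.3% were called lower and 10.7% higher in fasted brain, and the median was -0.01. With 3 genes per class the counts are too small to set apart from these shares.

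Averaged within a class as deviations from each gene's mean, the SREBP2-driven genes stood at -0.18, -0.16, -0.01 and 0.00 in the fasted arrays, against 0.01, 0.11, 0.05 and 0.18 in the fed arrays. The LXR-driven genes stood at 0.08, 0.07, 0.17 and 0.03 in the fasted arrays, against -0.07, -0.10, -0.11 and -0.08 in the fed arrays. Neither class overlapped between fasted and fed, but within the SREBP2-driven class the fasted arrays of slide 2 lay close to the lowest fed array. Gene by gene, on the brightest probe, only Srebf2, Abca1 and Abcg1 separated, while Insig1, Stard4 and Apoe overlapped. Of all genes, 27.2% did not overlap. With 3 chosen genes per class, these averages are a description and carry no test.

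**Figure D3:**
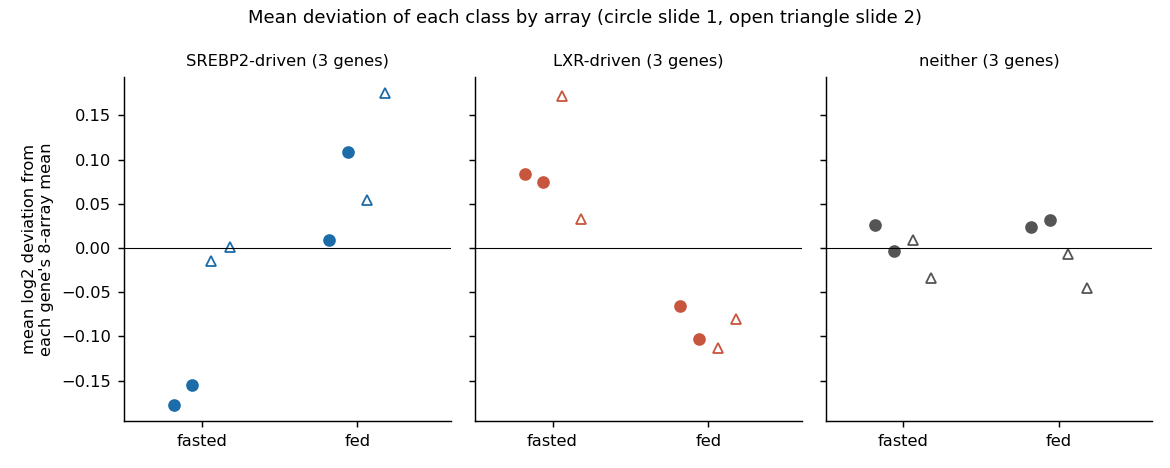
Mean log2 deviation of the 3 genes of each class from their 8-array means (vertical axis), fasted left and fed right, with circles for slide 1 and open triangles for slide 2. The SREBP2-driven mean is lower and the LXR-driven mean higher in every fasted array, and the remaining genes stay near 0.

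For the single pair of Insig1 and Abca1, taken as the textbook target of each factor, the log2 value of Insig1 minus that of Abca1 was -2.06, -1.95, -2.03 and -1.75 in fasted arrays, against -1.66, -1.30, -1.43 and -1.48 in fed arrays. The groups did not overlap. The difference was -0.48, with an exact two-sided permutation p of 0.0286, the smallest that the 70 splits of 8 arrays allow. Arrays with the same replicate number were taken as paired, however, though such pairs also share a slide. When fasted and fed were exchanged only within such pairs the exact p was 0.125, the smallest that 16 exchanges allow. Exchanged only within slides it was 0.0556, the smallest of 36. The pair is therefore not past 0.05 in either restricted test, neither of which could have passed at this number of arrays. Abca1 alone differed by 0.41 and Insig1 alone by -0.07, so the pair difference mostly restates that of Abca1. The pair was chosen with earlier results of these data known, and its p is no separate evidence on the 2 branches.

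By the root mean square difference of centred values over the 8 arrays, Slc66a1 (0.0515), Sin3b (0.0595) and Rom1 (0.0617) were the genes most like Abca1, whose own spread about its mean was 0.224. Their differences were 0.40, 0.42 and 0.32, which lie near that of Abca1 because the choice used the same fasted and fed arrays. Most like Insig1, whose spread was 0.101, were Pheta2 (0.0129), Rpl4 (0.0299) and Nrm (0.0345). Sin3b was like Abca1 on its brightest probe only, and the mean of its probes gave a difference of -0.03.

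Other genes of the sterol pathways were read in the gene-level fit, where 10.7% of all genes were higher and 10.3% lower in fasted brain. Of 21 sterol synthesis enzymes, most of them SREBP2 targets, 17 fell and 0 rose, with a median of -0.24. Cyp51, which demethylates lanosterol, averaged -2.65 ± 0.12 in fasted arrays and -2.09 ± 0.08 in fed arrays (SD, 4 arrays each), a difference of -0.55 (adjusted p = 0.00180). Hmgcs1, an early enzyme of the mevalonate pathway, differed by -0.43 (adjusted p = 0.00195) and Mvd, a later one, by -0.51 (adjusted p = 0.00320). The count was 9 without fed replicate 2, 10 without fasted replicate 2 or fed replicate 4, and 11 with no filter on dim probes.

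Of 7 other SREBP2 targets, 1 fell and 0 rose, with a median of -0.11. The one that fell was Aacs, a cytosolic enzyme that activates acetoacetate, at -0.11 (adjusted p = 0.0434). Its call was lost in 11 of 19 alternatives, among them every omission of a single array but that of fasted replicate 4, and the replicate block (adjusted p = 0.0611).

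Among 10 measured partners of SREBP processing, 3 rose and 0 fell, with a median of 0.05. These were Mbtps2 (0.27, adjusted p = 0.00708) and Mbtps1 (0.17, adjusted p = 0.0258), the proteases that release SREBP2, and Rnf139 (0.14, adjusted p = 0.0244), a ubiquitin ligase of the endoplasmic reticulum. Normexp correction reduced the difference of Mbtps2 to 0.12 (adjusted p = 0.163). With the replicate block Mbtps1 had an adjusted p of 0.0645, and it was also lost without fasted replicate 2. Rnf139 was also lost without fasted replicate 1 and with median scaling. The count was 1 without fed replicate 1, fed replicate 2 or fed replicate 3, with normexp and with no filter.

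LXR targets outside the 9 genes did not move one way. Of 9 measured, 1 rose and 1 fell, with a median of -0.05. Lpcat3, which remodels phospholipids, read 0.13, 0.09, 0.17 and 0.14 in fasted arrays, against -0.10, -0.14, -0.19 and -0.12 in fed arrays. The groups were far apart for their spread, and the difference was 0.27 ± 0.03 (adjusted p = 0.00181). Pltp, which transfers phospholipid between lipoproteins, went the other way, with 0.57, 0.56, 0.38 and 0.30 in fasted arrays, against 1.20, 1.03, 0.80 and 0.88 in fed arrays. All fasted values were below all fed values, and the difference was -0.53 ± 0.10 (adjusted p = 0.00900). Both calls held under all 19 alternatives, and a variance trend brought the count of the group to 4.

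The receptors themselves were lower or did not pass: of 5 LXR and RXR genes, 2 fell and 0 rose, with a median of -0.22. Rxrg differed by -0.22 (adjusted p = 0.00546), while its second probe differed by -0.10 (adjusted p = 0.121). Nr1h2, which encodes LXR beta, differed by -0.23 (adjusted p = 0.0271), and Nr1h3, which encodes LXR alpha, by -0.06 (adjusted p = 0.269), while a second Nr1h3 probe differed by -0.12 (adjusted p = 0.0354). The count was 1 without fasted replicate 1, fasted replicate 2, fed replicate 1, fed replicate 3 or fed replicate 4, with median scaling and with no filter. Rxra differed by -0.32 (adjusted p = 0.354) and by -0.31 on its second probe (adjusted p = 0.0635). Without single arrays the difference of the brighter Rxra probe ranged from -0.44 (without fed replicate 1) to -0.17 (without fed replicate 3) and -0.19 (without fasted replicate 2), and none of these omissions brought a call. This probe had an adjusted p of 0.0247 with the replicate block and 0.0134 with the slide as a block.

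In lipoprotein uptake, 2 of 13 measured genes rose and 1 fell, with a median of 0.00. Sorl1, a sorting receptor of neurons, differed by 0.27 (adjusted p = 0.0109) and kept its call under all 19 alternatives. Lrpap1, a chaperone of these receptors, differed by 0.11 (adjusted p = 0.0281) and Lrp8, an apolipoprotein E receptor, by -0.15 (adjusted p = 0.0319). Their second probes pointed the opposite way, at -0.06 for Lrpap1 and 0.22 for Lrp8. Lrpap1 lost its call without fasted replicate 1 or 2 or fed replicate 1, 2 or 4, and Lrp8 without fasted replicate 1, 3 or 4 or fed replicate 1, 3 or 4. With the replicate block Lrp8 had an adjusted p of 0.0758, and the count of the group was 1 without fed replicate 1 or fed replicate 4, with normexp and with no filter, and 5 with a variance trend.

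Among 10 measured genes of efflux and particle formation, 3 rose and 2 fell, with a median of 0.04. Apod, a small lipid-binding apolipoprotein, read 5.55, 5.64, 5.77 and 5.45 in fasted arrays, against 4.83, 4.95, 4.997 and 4.94 in fed arrays. The groups were well separated, and the difference was 0.67 ± 0.07 (adjusted p = 0.00124). A second Apod probe differed by 1.44 (adjusted p = 0.00155). Abca7, a close relative of Abca1, opposed it, with 1.104, 1.14, 1.20 and 1.20 in fasted arrays, against 1.43, 1.41, 1.50 and 1.50 in fed arrays. The difference was -0.30 ± 0.04 (adjusted p = 0.00210), so both transporters passed with opposite signs. Abca2, a transporter of myelin-forming cells, differed by 0.14 (adjusted p = 0.0251), a call lost without fasted replicate 1 or 2 or fed replicate 2 or 4. The third gene that rose, named after its values were seen, was the cholesteryl ester hydrolase Nceh1 at 0.18 (adjusted p = 0.0321). Its call was lost in 8 of 19 alternatives: median scaling, no filter, and the omission of fasted replicate 1 or 4 or of any fed array. The count was 3 without fasted replicate 1, fed replicate 2 or fed replicate 4, and with no filter.

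Of 14 measured cytosolic sterol transfer genes, 3 fell and 0 rose, with a median of -0.03. Gramd1c, a sterol carrier at membrane contacts, differed by -0.24 (adjusted p = 0.00948). The others were Osbpl8 at -0.24 (adjusted p = 0.0285, or 0.0584 with the replicate block) and Stard3 at -0.11 (adjusted p = 0.0339, or 0.0579 with the replicate block). Stard3 kept its call without fasted replicate 3 but lost it without any other single array. The count of the group was 1 with the replicate block, with median scaling, with no filter, and without fasted replicate 1, fasted replicate 2, fed replicate 1, fed replicate 3 or fed replicate 4.

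Of 6 other sterol hydroxylases and relatives, 1 rose and 1 fell, with a median of -0.03. Ch25h, which makes the LXR ligand 25-hydroxycholesterol, read -4.41, -3.75, -3.99 and -4.36 in fasted arrays, against -4.79, -5.03, -5.18 and -4.65 in fed arrays. The probe was dim and was left out when probes had to be well above background on all 8 arrays. The groups did not overlap, and the difference was 0.79 ± 0.17 (adjusted p = 0.0154). Normexp correction gave 0.31 and no call. Hsd3b7, of bile acid synthesis, differed by -0.22 (adjusted p = 0.0269), a call lost in 8 of 19 alternatives: median scaling, no filter, and the omission of fasted replicate 1, 2 or 4 or of fed replicate 1, 3 or 4.

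**Figure D4:**
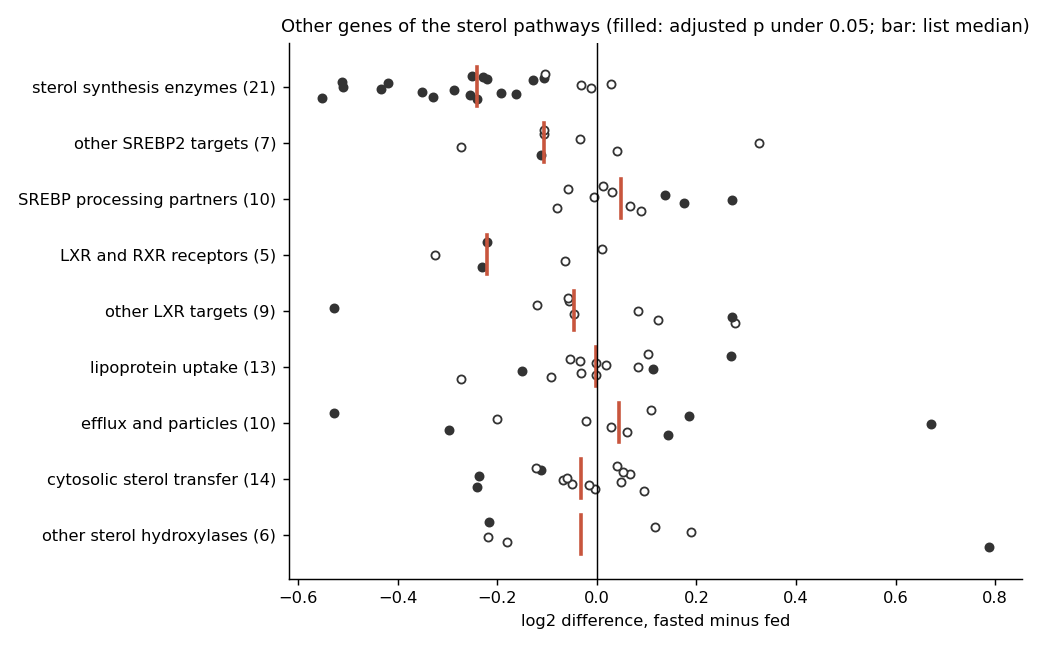
Log2 difference, fasted minus fed (horizontal axis), for each measured gene of 9 sterol pathway groups, filled where the gene-level adjusted p was under 0.05, with a bar at the median of the group. Sterol synthesis has 17 filled points, all left of 0, while the LXR targets, uptake and efflux groups have filled points on both sides.

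Markers of brain cell types also moved. Of 10 astrocyte markers, 2 rose (Gjb6 at 0.57 and Slc1a2 at 0.32) and 1 fell (Aqp4 at -0.41). Their summed signal, in units of the array's 75th percentile, was 175 to 187 in fasted and 157 to 176 in fed brain. Such sums mostly follow the brightest probes. For astrocytes that was Aldoc, with log2 means of 6.93 in fasted and 6.83 in fed arrays and no call (adjusted p = 0.314). Slc1a2 was not called without fasted replicate 2, fasted replicate 3 or fed replicate 2, nor with the mean of its probes (0.21, adjusted p = 0.0745). Its other probes differed by 0.26 (adjusted p = 0.0462) and 0.04 (adjusted p = 0.745). Of 11 microglial markers 0 rose and 5 fell, among them Tmem119 at -0.42 and Aif1 at -0.54, with sums of 54.7 to 59.0 in fasted and 57.0 to 61.4 in fed brain. Of 10 oligodendrocyte markers 1 rose and 5 fell, with sums of 115 to 123 in fasted and 120 to 129 in fed brain. Of 7 endothelial markers 1 rose and 2 fell, with sums of 10.01 to 10.82 in fasted and 10.3 to 11.1 in fed brain.

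Of 10 neuronal markers 0 were called, with sums of 188 to 199 in fasted and 179 to 190 in fed brain, as were 0 of 4 choroid plexus and ependymal markers (33.3 to 37.4 in fasted, 34.2 to 39.1 in fed) and 0 of 2 measured blood markers (20.2 to 32.7 in fasted, 21.6 to 36.1 in fed). With the replicate block the neuronal marker Nefl (0.16, adjusted p = 0.0322) and the blood marker Hba-a1 (-0.21, adjusted p = 0.0378 in that fit) passed. The pituitary markers Gh and Prl did not pass the filter. The part of these shifts in the sterol results was not tested. In bulk tissue, fewer cells of a type and less RNA per cell cannot be told apart.

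The arrays were alike in quality, with a 75th percentile of 1651 to 1944, between 24564 and 27219 probes well above background (62.3 to 69.0%), 0 saturated spots and a mean correlation with the other arrays of the same group of 0.995 to 0.997. Each of the 2 slides held 2 fasted and 2 fed arrays. On each slide the fasted arrays took positions 1 and 3, with fed arrays at 2 and 4, and position and fasting therefore cannot be told apart.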

How the data were processed

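Total RNA from brain was labelled with Cy3 and hybridised to single-colour Agilent arrays, per the labels' protocols. The deposited scanner intensity (gProcessedSignal) had been background-corrected by Agilent Feature Extraction, version 11.0.1.1 per the file headers and 10.10.1.1 per the submitters' processing notes. The deposited series table holds linear ratio values that follow the scaled scanner signals (median SD 0.000179 on the log2 scale over arrays) and served as an alternative.

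Control spots and outlier-flagged spots were left out, spots of a probe were averaged after log2, and arrays were scaled by subtracting their 75th percentile (control spots excluded). Probes well above background on at least 4 of 8 arrays (26066 of 39429) were fitted with limma 3.58.1 (R 4.3.3; lmFit, eBayes) over fasted and fed arrays, with Benjamini-Hochberg adjustment over all of them and a threshold of 0.05. Gene counts used the brightest kept probe of each gene matched to RefSeq by accession (15184 genes). In a simulation of this fit over 26053 probes, 48 of 50 probes changed 2-fold and 39 of 50 changed 1.3-fold were called, with 6 calls among unchanged probes. The simulation drew independent noise for each probe, without the deviations that arrays of a slide share. Its few false calls therefore need not hold for these arrays. The number of arrays limits the precision.

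The genes, classes and lists were chosen with earlier results of these data known. All 9 genes were described on every probe. From each list up to 4 genes with the smallest p could be named, and for Insig1 and Abca1 the 3 genes nearest by root mean square difference of centred values.

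Replicate numbers come from the titles. Same-numbered fasted and fed arrays deviated together (correlation 0.18 to 0.29 for every pair), so the numbers were taken to pair them, and each such pair also shared a slide. Different numbers on 1 slide gave 0.05 to 0.27, which overlaps that range, and different slides gave -0.39 to -0.10. Deviations were taken from each group's mean, so positive values within slides bring negative values between slides. Pairing by number therefore cannot be told apart from the shared slide. Alternatives were normexp background correction (offset 50), median scaling, quantile normalization, 2 other filters, flagged spots kept, slide and replicate blocks, each slide alone, the series table, a variance trend, the mean of a gene's probes, and omission of each array.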

Additional observations from a re-analysis of the deposited data

Results flagged for a closer look

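For Insig2 probe A_55_P1957624, fasted replicate 2 read 0.45 while the other 3 fasted arrays read 0.52 to 0.54, a gap that was 0.840 of the group's range, above Dixon's 95% critical value for 4 samples. It was the only one of 24 groups of values examined to stand apart, and chance flags about 1 group in 20. Without that array the fasted against fed difference of this probe did not pass the threshold either.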

How the results depend on the processing

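The 4417 probes called became 2846 with normexp and 2605 with no filter on dim probes, and 2782 to 3788 when 1 array was left out (2782 without fasted replicate 1, 2935 without fasted replicate 2, 2879 without fed replicate 2). The 3194 genes called became 2179 to 2852 when 1 array was left out. The 3 probes called among the 9 genes became 1 with median scaling and 1 with no filter, and ranged from 1 to 3 without single arrays (1 without fasted replicate 1, fasted replicate 2, fed replicate 3 or fed replicate 4), while the 3 genes called ranged from 2 to 3. Within slide 1 alone and slide 2 alone limma called 0 probes, 0 genes and 0 of the 9 genes. At an unadjusted p under 0.05 there were 5763 and 4021 probes, 3944 and 2592 genes, and 4 and 2 of the 9 genes, in slides 1 and 2. With the replicate block 3957 probes and 3123 genes were called, and the block ended none of the 3 member calls (Srebf2 0.0149, Abca1 0.0317, Abcg1 0.0410); among the other genes named here, each on its brightest probe, it changed only the calls given beside them. The mean of a gene's probes turned the sign of Lrp8 (0.038) and Sin3b (-0.032). Median scaling gave 1449 genes higher and 1019 lower in fasted brain, against 1632 and 1562 with the 75th percentile, and the median difference of all probes was 0.01 with the one and -0.01 with the other. The cause of these changes was not tested. The difference of Insig1 minus Abca1 (-0.48) was -0.47 with normexp and with quantile normalization; it has an exact p of 0.125 with the replicate block and 0.0556 with exchange within slides, both chosen after seeing the data. Signal near background bounded what could be tested for the second Stard4 probe.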
